A study of Homo sapiens with 18 samples.

Results

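CTCF and 8 cohesin genes were followed through ribosome profiling and mRNA-seq of IMR90 cells, human lung fibroblasts of fetal origin with a finite replicative lifespan in culture. The 9 genes were chosen by name, out of 38716 gene symbols in the tables: CTCF, the ring subunits SMC1A, SMC3 and RAD21, the ring-bound subunits STAG1 and STAG2, the loading factor NIPBL, and the regulatory subunits PDS5A and PDS5B. The comparison was between young IMR90 (low passage, proliferating), old IMR90 (high passage, in replicative senescence) and ICM-treated IMR90. The last were of low passage like the young cells and received inflachromene (ICM), a compound that targets HMGB1 and HMGB2. Each condition had 3 replicates, and each lysate gave a Ribo-seq and an mRNA-seq library, 18 libraries in all, and every sample was labelled as the IMR90 line.

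Cohesin is a ring-shaped complex that holds sister chromatids together after replication and extrudes chromatin into loops. SMC1A, SMC3 and RAD21 form the ring, either STAG1 or STAG2 binds to RAD21, NIPBL together with MAU2 drives loading and loop extrusion, and PDS5A and PDS5B bind the ring and act with WAPL in its release. CTCF is a zinc-finger protein that binds DNA in an orientation-dependent way and stops the extruding ring, which places loop anchors and domain boundaries.

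Ribo-seq sequences the mRNA fragments that ribosomes protect, and footprints on the coding sequence (CDS) were counted. For mRNA-seq, reads on the 5′ UTR, CDS and 3′ UTR were summed. Levels of a gene are given as CPM, counts scaled to the library size with TMM factors. Only the cell type markers below are in CPM over all genes without TMM factors. The mRNA-seq libraries held 7902427 to 14144455 such reads and the Ribo-seq libraries 46239 to 1718521 CDS reads. The share of all Ribo-seq reads that fell on the CDS was 34.4% in young replicate 1 and 15.0% in old replicate 2, against 54.7% to 88.8% in the other 7 libraries. Of 11 fibroblast markers, 10 had a mean over 10 CPM, and their summed level was 32870 to 37069 CPM in young, 29085 to 33800 CPM in old and 14406 to 14689 CPM in ICM libraries. Of the markers of other cells, 4 of 6 epithelial (EPCAM, CDH1, SFTPC, SFTPB), 4 of 5 endothelial (PECAM1, CDH5, KDR, CLDN5) and 4 of 5 blood and immune markers (PTPRC, CD14, LYZ, HBA1) had a mean under 1 CPM, and CDH5 was at 0. Of those left, 1 of the epithelial KRT18 and KRT19 and the blood and immune CD68 had a mean over 10 CPM. So did 3 of 4 smooth muscle and pericyte markers. Summed epithelial markers were at 285 to 307 CPM in young, 210 to 235 in old and 29.3 to 35.1 in ICM libraries, endothelial at 0.76 to 1.15, 0.89 to 1.01 and 3.77 to 4.88, blood and immune at 20.1 to 22.3, 31.6 to 34.4 and 57.2 to 68.3, and smooth muscle and pericyte markers at 289 to 325, 319 to 346 and 74.2 to 82.5. Their part in the results was not tested.

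Summed over the 9 genes, the mRNA level was 634, 634 and 665 CPM in the young libraries. It was 406, 399 and 419 CPM in the old libraries and 378, 364 and 367 CPM in the ICM libraries. Every old and every ICM library lay below every young library, and the ICM libraries lay below the old ones. CPM is relative to the rest of the library and does not measure the amount of RNA per cell. Since these are bulk samples, fewer cells with a high level and a lower level in each cell cannot be told apart.

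In mRNA-seq, 8 of the 9 genes fell and 1, STAG1, rose in ICM against young cells (edgeR's quasi-likelihood test, two-sided, adjusted p under 0.05 after Benjamini-Hochberg adjustment over 13173 genes). Of all tested genes, 36.1% fell and 34.9% rose in this comparison. All 9 genes fell in old against young cells, where 33.7% of tested genes fell and 32.4% rose. The median log2 change of the 9 genes was -0.73 in both comparisons, while the medians over all tested genes were -0.01 in each. Both comparisons use the same young libraries. Between ICM and old cells, STAG1 was higher, 6 genes were lower and NIPBL and PDS5B were not called, where 30.7% of tested genes were called higher and 32.6% lower.

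**Figure D1:**
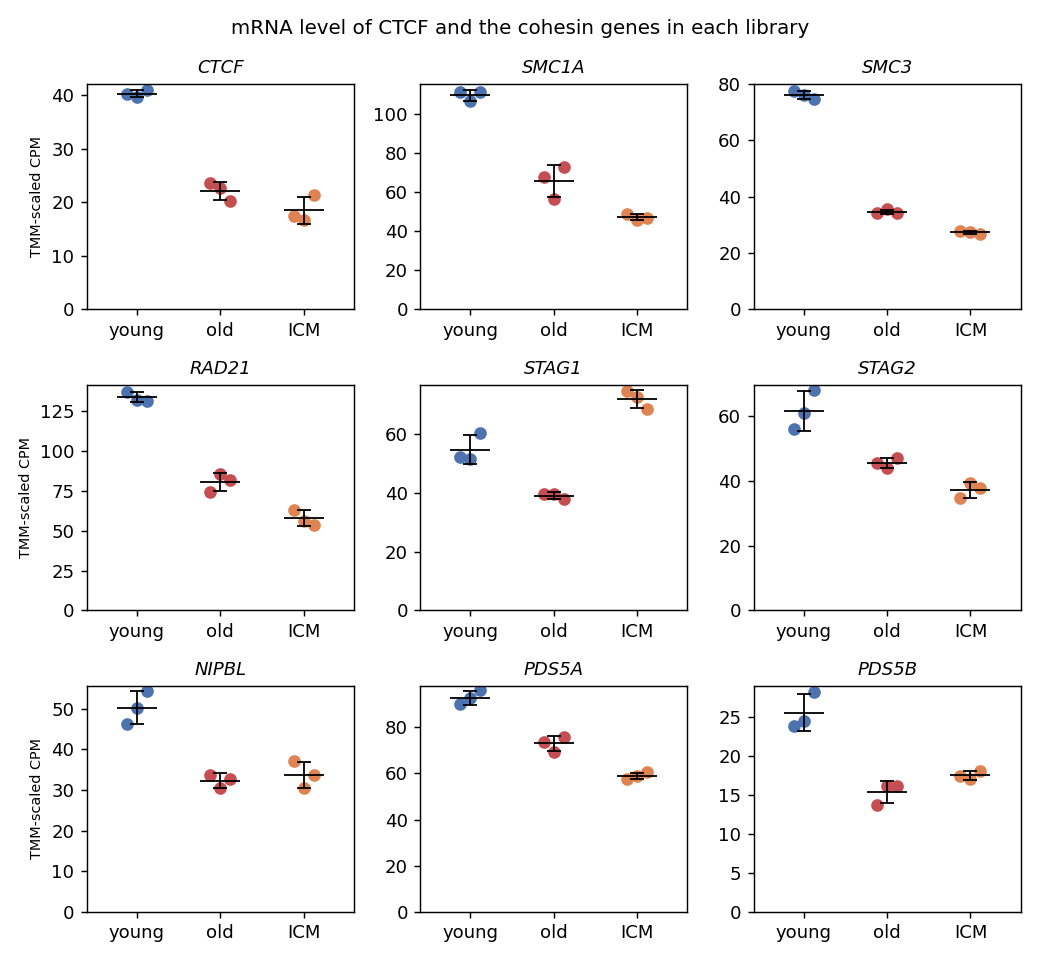
mRNA level of each gene (TMM-scaled CPM, vertical axis from 0) in the young, old and ICM libraries. Points are single libraries, the wide dash is the mean and bars are ± SD (n = 3). In every panel but STAG1 the young libraries are the highest, and STAG1 is highest in the ICM libraries.

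Promoter windows of 250 bases before to 50 bases after the RefSeq starts (GRCh38.p14) were searched on both strands for 8 members, with 11 start sites. An E2F motif (TTTCCCGC, TTTGGCGC, TTTCGCGC or TTTGCCGC), the site of the cell cycle factors that drive S phase genes, was present for NIPBL, SMC1A, STAG1 and STAG2, 4 of 8, against 3.315% of 35116 promoters. The NRF1 motif, which reads GCGCA, any base, then GCGC, was present for STAG1 and STAG2, against 5.784%, and in STAG1 it lay beside the E2F match. CHR elements (TTTGAA or TTCGAA) were present for CTCF, PDS5B and SMC3 (16.352% of promoters) and CCAAT boxes for PDS5A, PDS5B, STAG1 and STAG2 (34.614%). Genes have 1 or more starts, so these shares are per promoter and not per gene. The matches are shown as a description. In STAG2 the NRF1 match lies at the first start and the E2F match at the third. CTCF, SMC3, PDS5A and PDS5B have no E2F match in these windows. Which starts these cells use, and any part of the matches in the mRNA levels, was not tested. Capitals mark the motif matches in 30-base windows placed on GRCh37 by exact match, given on the gene's strand.
STAG1 (chr3:136471375-136471404, minus): gTTTCCCGCcccgctggtGCGCGTGCGCgc
STAG2, first start (chrX:123094373-123094402, plus): ccgacagatgGCGCCTGCGCgttccattcg
STAG2, the third start (chrX:123095846-123095875, plus): tgttggggggtTTTGGCGCcacttttgttt
SMC1A, second start (chrX:53449605-53449634, minus): gcactgcggcgTTTCCCGCgcgggctacct
NIPBL (chr5:36876811-36876840, plus): ggttgttagtgTTTGGCGCcggcggaggga

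Translation starts of the STAG and PDS5 pairs were read from the GRCh37 transcripts, with the ATG in capitals, 12 bases before it and 8 after it. All 8 members searched had a purine at position -3, counted back from the A of the ATG, and 4, CTCF, SMC1A, PDS5A and PDS5B, had a G just after the ATG. STAG1 and STAG2 both had an A there.
STAG1 (chr3:136349738-136349740, minus): acctctccagcaATGattacttc
STAG2 (chrX:123156478-123156480, plus): gatgataaagaaATGatagcagc
PDS5A (chr4:39978195-39978197, minus): ttgtcccccaggATGgacttcac
PDS5B (chr13:33222910-33222912, plus): aatatttctgtcATGgctcattc

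CTCF (chr16:67596370-67673080, plus strand, GRCh37) had mRNA levels of 40.2, 39.7 and 40.9 CPM in the young libraries. It had 23.5, 22.6 and 20.3 CPM in the old libraries and 17.5, 16.7 and 21.4 CPM in the ICM libraries. Both groups lay wholly below the young libraries and overlapped each other. Its fitted log2 change was -1.12 ± 0.09 (SE) in ICM against young cells (adjusted p = 2.786e-10) and -0.86 ± 0.09 in old against young cells (adjusted p = 2.332e-08). Between ICM and old cells it was -0.26 ± 0.10 (adjusted p = 0.026), a call that was lost under 8 of the 17 other settings tried. These were DESeq2, only the compared groups, CDS reads alone and young replicate 1 and old replicate 2 left out together (adjusted p = 0.053, 0.051, 0.14 and 0.061), and old replicate 1, old replicate 2, ICM replicate 1 or ICM replicate 2 left out (adjusted p = 0.093, 0.063, 0.111 and 0.129).

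Of the ring subunits, SMC3 (chr10:112327442-112365806, plus strand), which pairs with SMC1A at the hinge and is acetylated during S phase, showed the lowest ratio to young cells of the 9 genes. It measured 77.6, 75.9 and 74.5 CPM in young, 34.2, 35.5 and 34.0 CPM in old and 27.6, 27.5 and 26.8 CPM in ICM libraries. The 3 groups did not overlap, with young highest and ICM lowest. On the log2 scale it changed by -1.48 ± 0.07 in ICM (adjusted p = 1.106e-14) and -1.13 ± 0.07 in old cells (adjusted p = 1.713e-12) against young cells, or 0.360 and 0.456 times the young level. Only 0 to 3 mRNA reads per library fell on the 3′ UTR of SMC3, although the annotation used here gives it 1749 bases, so that its level rested on the CDS.

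SMC1A (chrX:53401070-53449677, minus strand), the partner of SMC3, measured 110.9, 106.3 and 110.9 CPM in young, 67.6, 56.5 and 72.7 CPM in old and 48.8, 45.5 and 46.9 CPM in ICM libraries. Its log2 change was -1.21 ± 0.08 in ICM and -0.74 ± 0.08 in old cells against young cells (adjusted p = 3.928e-12 and 1.686e-08). RAD21, the kleisin that closes the ring and is cut by separase at anaphase, measured 137.4, 132.1 and 131.6 CPM in young, 74.5, 85.3 and 82.0 CPM in old and 63.3, 56.4 and 53.9 CPM in ICM libraries. For both genes the 3 groups were ordered young, old, ICM without overlap. RAD21 changed by -1.20 ± 0.07 in ICM and -0.73 ± 0.07 in old cells on the log2 scale (adjusted p = 7.986e-13 and 5.262e-09). All 3 ring genes were also lower in ICM than in old cells, by log2 changes of -0.47 ± 0.08 for SMC1A, -0.34 ± 0.07 for SMC3 and -0.48 ± 0.07 for RAD21.

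STAG1 and STAG2 are alternative subunits, of which a ring carries one, and rings with STAG1 or STAG2 differ in how stably they sit on chromatin and at which sites. STAG1 (chr3:136055078-136471245, minus strand) measured 52.1, 51.5 and 60.1 CPM in young, 39.6, 39.7 and 37.7 CPM in old and 74.4, 72.3 and 68.4 CPM in ICM libraries. The 3 groups did not overlap: old was lowest, young lay between and ICM was highest. The fitted log2 change was 0.39 ± 0.07 in ICM against young cells (adjusted p = 4.17e-05) and -0.49 ± 0.08 in old against young cells (adjusted p = 7.126e-06). ICM and old cells differed directly by 0.88 ± 0.07, a fold of 1.84 (adjusted p = 5.001e-10). With a log2 change over 0.6 also required, STAG1 was called between ICM and old cells and in neither comparison with young cells.

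STAG2 (chrX:123094062-123556514, plus strand) measured 55.8, 61.0 and 68.0 CPM in young, 45.6, 43.9 and 47.2 CPM in old and 34.6, 39.4 and 37.8 CPM in ICM libraries. In contrast to STAG1, its ICM libraries were the lowest of the 3 groups, again without overlap. The log2 change was -0.73 ± 0.08 in ICM (adjusted p = 2.73e-08), -0.44 ± 0.08 in old cells (adjusted p = 3.555e-05) against young cells, and -0.29 ± 0.08 between ICM and old cells (adjusted p = 0.0034).

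The balance of the pair was read within each library, as the log2 ratio of STAG2 to STAG1 reads with 0.5 added to each count. In mRNA-seq the ratio was 0.10, 0.24 and 0.18 in the young libraries and 0.20, 0.15 and 0.32 in the old libraries. It was -1.10, -0.88 and -0.85 in the ICM libraries, all below zero, while all 6 young and old libraries were above zero. The mean ratio in ICM cells was lower by 1.12 than in young cells and by 1.17 than in old cells (exact permutation test, two-sided, p = 0.1 for each, the smallest that 3 against 3 libraries can give; adjusted p = 0.3 over 12 ratio comparisons). Old and young cells differed by 0.05, with overlapping libraries (exact p = 0.5). STAG1 took 46.8% of the STAG1 and STAG2 mRNA reads pooled over the young libraries (95% Clopper-Pearson interval 45.2% to 48.5%), 46.2% in old (44.4% to 48.1%) and 65.9% in ICM cells (64.4% to 67.4%). These intervals cover counting error only.

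**Figure D2:**
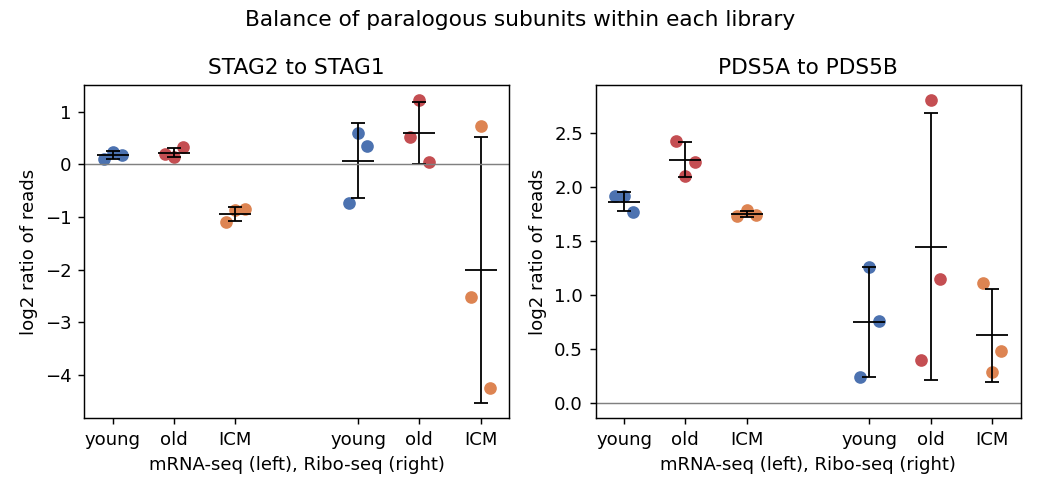
Log2 ratio of reads of paralogous subunits within each library (vertical axis), for STAG2 to STAG1 (left panel) and PDS5A to PDS5B (right panel), with mRNA-seq and Ribo-seq side by side. Points are libraries, dashes means and bars ± SD (n = 3). The 3 ICM libraries have a STAG2 to STAG1 mRNA ratio between -1.10 and -0.85, and the Ribo-seq values spread widely.

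NIPBL (chr5:36876871-37066515, plus strand), the loader, measured 46.3, 50.1 and 54.4 CPM in young, 33.8, 30.4 and 32.8 CPM in old and 37.03, 30.5 and 33.7 CPM in ICM libraries. Old and ICM libraries overlapped and both lay below the young ones. Its fitted log2 change was -0.58 ± 0.08 in ICM and -0.65 ± 0.08 in old cells against young cells (adjusted p = 2.185e-06 and 6.575e-07). Between ICM and old cells it was 0.07, with a 95% interval from -0.10 to 0.24.

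PDS5A (chr4:39824483-39979576, minus strand) measured 90.0, 92.7 and 96.1 CPM in young, 73.9, 69.3 and 75.9 CPM in old and 57.6, 58.8 and 60.5 CPM in ICM libraries, in that order without overlap. PDS5B (chr13:33160589-33352157, plus strand) measured 23.8, 24.5 and 28.2 CPM in young, 13.7, 16.1 and 16.1 CPM in old and 17.4, 17.0 and 18.1 CPM in ICM libraries. For PDS5B it was the old libraries that were lowest. PDS5A changed by -0.66 ± 0.06 in ICM and -0.35 ± 0.06 in old cells on the log2 scale (adjusted p = 5.165e-09 and 4.708e-05). PDS5B changed by -0.55 ± 0.09 in ICM and -0.73 ± 0.10 in old cells (adjusted p = 2.059e-05 and 7.656e-07). The log2 ratio of PDS5A to PDS5B was 1.87 ± 0.09 (SD, n = 3) in young, 2.26 ± 0.16 in old and 1.75 ± 0.03 in ICM libraries. Old libraries did not overlap the others, with differences of 0.39 for old against young cells and of -0.50 for ICM against old cells. The exact permutation test gave p = 0.1 for each, which any 3 against 3 libraries without overlap give (adjusted p = 0.3 over 12 ratio comparisons).

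Compared per length, as CDS reads per kb of coding sequence, scaled to the CDS reads of the library as in RPKM, RAD21 mRNA had the highest level of the 9 genes in every condition. In young cells it measured 73.9 ± 4.05 (SD, n = 3), followed by SMC1A at 32.8 ± 0.54 and SMC3 at 31.8 ± 0.53, whose libraries overlapped. PDS5A at 27.3, STAG2 at 21.2, CTCF at 19.2 and STAG1 at 16.7 came next, and NIPBL at 8.93 and PDS5B at 8.09 were lowest and overlapped. In that order, neighbours from STAG2 to STAG1 overlapped too. STAG1 stood at rank 7 of 9 in young cells, at rank 6 in old cells at 11.3 and at rank 2 in ICM cells at 22.9 ± 0.32, above PDS5A at 18.5, SMC1A at 15.6, STAG2 at 12.9 and SMC3 at 11.8. Per coding length, STAG1 mRNA in ICM cells was thus above 2 of the 3 ring subunits it assembles with.

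**Figure D3:**
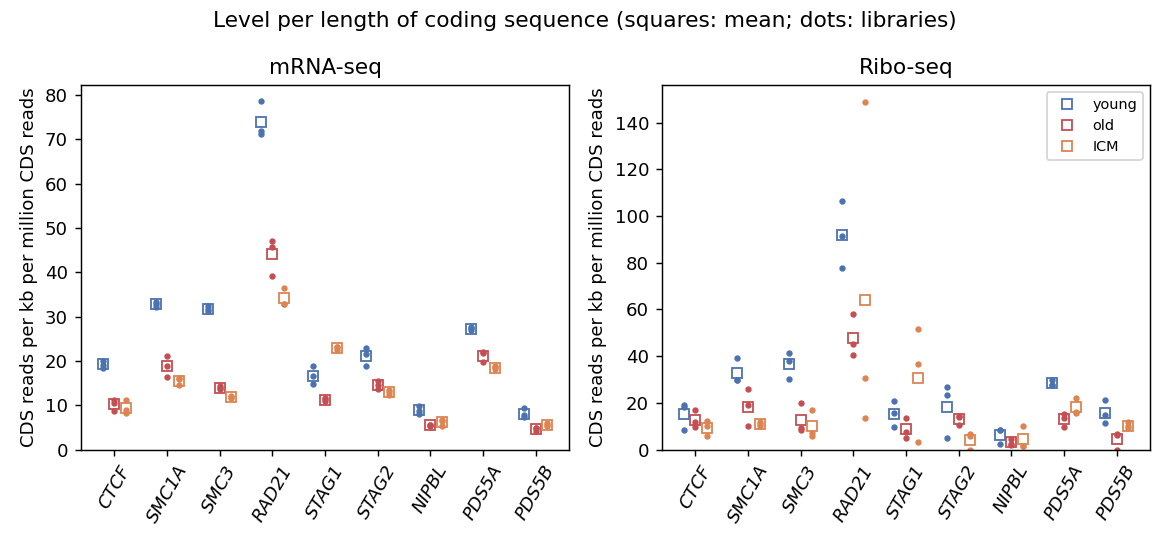
Level per length of coding sequence (RPKM over the CDS, vertical axis from 0) for mRNA-seq (left) and Ribo-seq (right). Squares are group means and dots are libraries, for young, old and ICM cells. RAD21 is the highest in each mRNA-seq group, and STAG1 is second in ICM cells.

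Footprints rested on far fewer reads. The 9 genes together had 36, 632 and 1534 footprints in the young, 605, 22 and 274 in the old and 110, 21 and 35 in the ICM libraries. Summed, they were at 713, 1010 and 976 CPM in young, 430, 443 and 562 CPM in old and 542, 286 and 799 CPM in ICM libraries. Old libraries lay below all young ones, and the ICM libraries overlapped both groups. CTCF, with 8 footprints in all ICM libraries together, did not pass the filter on low counts and was not tested.

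Of the 8 genes tested in Ribo-seq, 4 fell in ICM against young cells (SMC1A, SMC3, RAD21 and STAG2) and none rose, where 12.9% of 4643 tested genes fell and 13.7% rose. In old against young cells 7 fell and SMC1A was not called (adjusted p = 0.068), where 17% of tested genes fell and 19.3% rose. Between ICM and old cells STAG1 was higher and the other 7 were not called, where 5.79% of tested genes were called higher and 7.62% lower. SMC1A and STAG2 passed the filter on low counts through young and old libraries, and none of their ICM libraries reached its cutoff. The counts of called genes moved with single libraries. In ICM against young cells 2 genes were called without young replicate 2 or 3 (6 genes tested in each) or without ICM replicate 1 (9 genes tested). In old against young cells 2 were called without young replicate 2 or 3, 1 without old replicate 1 and 4 without old replicate 3. The STAG1 call between ICM and old cells was lost without young replicate 2, young replicate 3, old replicate 1 or ICM replicate 1. DESeq2 called 2, 1 and 0 of the 8 genes in the 3 comparisons.

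SMC3 footprints were at 118.8, 164.6 and 152.1 CPM in young, 39.8, 80.5 and 36.9 CPM in old and 69.0, 27.3 and 22.8 CPM in ICM libraries. All young libraries lay above all others. On the log2 scale it changed by -1.93 ± 0.26 in old (adjusted p = 5.215e-07) and -1.56 ± 0.39 in ICM cells (adjusted p = 0.0028) against young cells. SMC1A footprints were at 118.8, 158.2 and 120.9 CPM in young, 83.9, 40.2 and 114.9 CPM in old and 44.3, 40.9 and 45.7 CPM in ICM libraries, with a log2 change of -1.62 ± 0.42 in ICM against young cells (adjusted p = 0.0039). That call was lost without ICM replicate 1 (adjusted p = 0.0509). The SMC1A change of -0.55 ± 0.24 in old against young cells, not called, was called without ICM replicate 1 or 2, with only the compared groups and with a mean of at least 50 counts (adjusted p = 0.0443, 0.0303, 0.0229 and 0.0344).

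RAD21 footprints were at 158.5, 220.6 and 189.6 CPM in young and 91.0, 120.7 and 102.6 CPM in old libraries, without overlap. The ICM libraries were at 64.1, 27.3 and 296.8 CPM, from 13, 2 and 13 footprints, so that replicate 3 lay above all young libraries and the other 2 below them. The fitted log2 change was -1.05 ± 0.26 in old (adjusted p = 0.0017) and -1.14 ± 0.38 in ICM cells (adjusted p = 0.023). Both calls were lost under other settings. The ICM call was lost without ICM replicate 1 or 2, without young replicate 2 or 3, with only the compared groups, with UTR reads included and in DESeq2 (adjusted p = 0.296, 0.0607, 0.157, 0.0981, 0.0527, 0.0762 and 0.284). The old call was lost without young replicate 2 or 3, without old replicate 1 and in DESeq2 (adjusted p = 0.104, 0.0556, 0.0633 and 0.191).

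STAG1 footprints were at 39.6, 63.9 and 86.5 CPM in young, 33.4, 20.1 and 61.6 CPM in old and 152.7, 13.6 and 205.5 CPM in ICM libraries. ICM replicates 1 and 3, with 31 and 9 footprints, lay above all 6 young and old libraries, and replicate 2, with 1 footprint, lay below them. ICM cells were higher than old cells by a log2 change of 1.58 ± 0.45 (adjusted p = 0.013), while against young cells the change of 0.73 ± 0.41 was not called (adjusted p = 0.196), and was called without ICM replicate 2 (adjusted p = 0.0252). Old cells were lower than young cells by a change of -0.86 ± 0.34 (adjusted p = 0.047), a call that was lost without young replicate 2 or 3 and without old replicate 1, 2 or 3 (adjusted p = 0.202, 0.595, 0.543, 0.0662 and 0.0535, log2 changes from -1.25 to -0.47). It was also lost in DESeq2, with no filter and with UTR reads included (adjusted p = 0.523, 0.0538 and 0.0872). The call of ICM against old cells was lost without ICM replicate 1 (log2 change 0.94, adjusted p = 0.426), without old replicate 1 (1.15, adjusted p = 0.238), without young replicate 2 or 3 (adjusted p = 0.052 and 0.0603) and in DESeq2 (adjusted p = 0.145).

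STAG2 footprints were at 19.8, 97.5 and 110.7 CPM in young, 48.4, 60.4 and 63.6 CPM in old and 24.6, 27.3 and 0 CPM in ICM libraries, the last from 5, 2 and 0 footprints. The ICM libraries lay below all old libraries and below young replicates 2 and 3. The log2 change against young cells was -2.20 ± 0.55 in ICM (adjusted p = 0.0029) and -0.90 ± 0.28 in old cells (adjusted p = 0.012). STAG2 was tested in 7 of the 9 fits with 1 library left out. The ICM call was lost in DESeq2 (adjusted p = 0.0603). The old call was lost in DESeq2 as well (adjusted p = 0.552), and without old replicate 1 or 3 (adjusted p = 0.277 and 0.056). Pooled over libraries, STAG1 took 43.0% of the footprints of the pair in young (38.2% to 47.9%), 43.3% in old (36.0% to 50.9%) and 85.4% in ICM cells (72.2% to 93.9%), the last from 41 footprints on STAG1 and 7 on STAG2. These intervals cover counting error only, and 31 of the 41 STAG1 footprints came from ICM replicate 1. The log2 ratio of STAG2 to STAG1 footprints was -2.52, 0.74 and -4.25 in the ICM libraries. Across libraries the Ribo-seq ratio overlapped between all groups (exact permutation p = 0.4 for ICM against young cells and 0.3 for ICM against old cells).

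NIPBL, PDS5A and PDS5B footprints fell in old against young cells, by log2 changes of -1.24 ± 0.35, -1.15 ± 0.25 and -0.99 ± 0.33 (adjusted p = 0.0057, 0.00058 and 0.018). All 3 calls were lost in DESeq2 (adjusted p = 0.396, 0.0873 and 0.21). NIPBL was also lost without young replicate 2 or 3 or old replicate 1 (adjusted p = 0.289, 0.371 and 0.297), and PDS5A without old replicate 1 (adjusted p = 0.109). PDS5B was tested in only 5 of the 9 fits with 1 library left out, and kept its call in those. In ICM against young cells the changes were -1.54 ± 0.60 for NIPBL (adjusted p = 0.053), -0.53 ± 0.35 for PDS5A and -0.49 ± 0.49 for PDS5B, and none was called. NIPBL was called without young replicate 1, without old replicate 2, without both, without ICM replicate 3 and with no filter (adjusted p = 0.0266, 0.043, 0.0242, 0.0039 and 0.0323). For PDS5A all old and all ICM libraries, at 46.9 to 73.9 and 68.2 to 98.5 CPM, lay below the young libraries at 118.8 to 131.1 CPM.

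**Figure D4:**
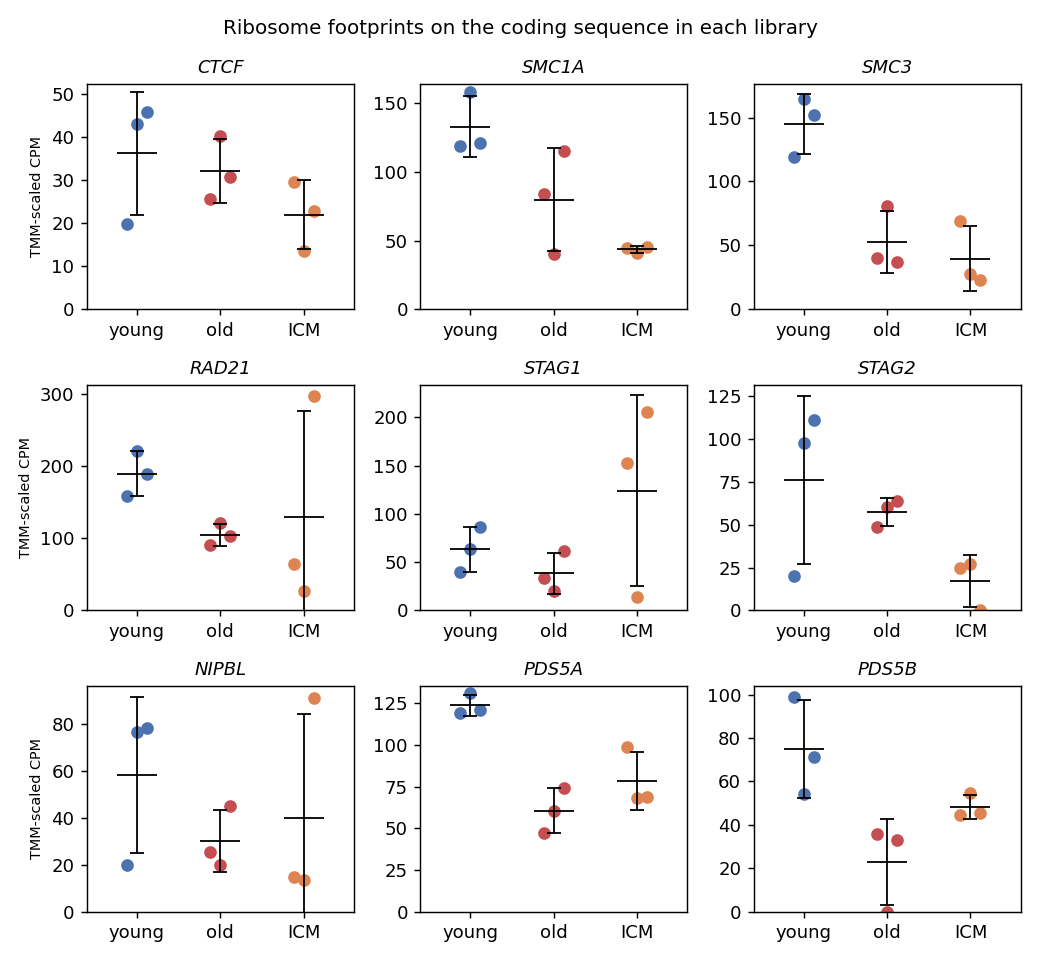
Ribosome footprints on the CDS of each gene (TMM-scaled CPM, vertical axis from 0) in the young, old and ICM libraries. Points are single libraries, dashes means and bars ± SD (n = 3), with bars cut at 0. The ICM values of RAD21 (27.3 to 296.8 CPM) and STAG1 (13.6 to 205.5 CPM) spread more widely than the other groups.

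**Figure D5:**
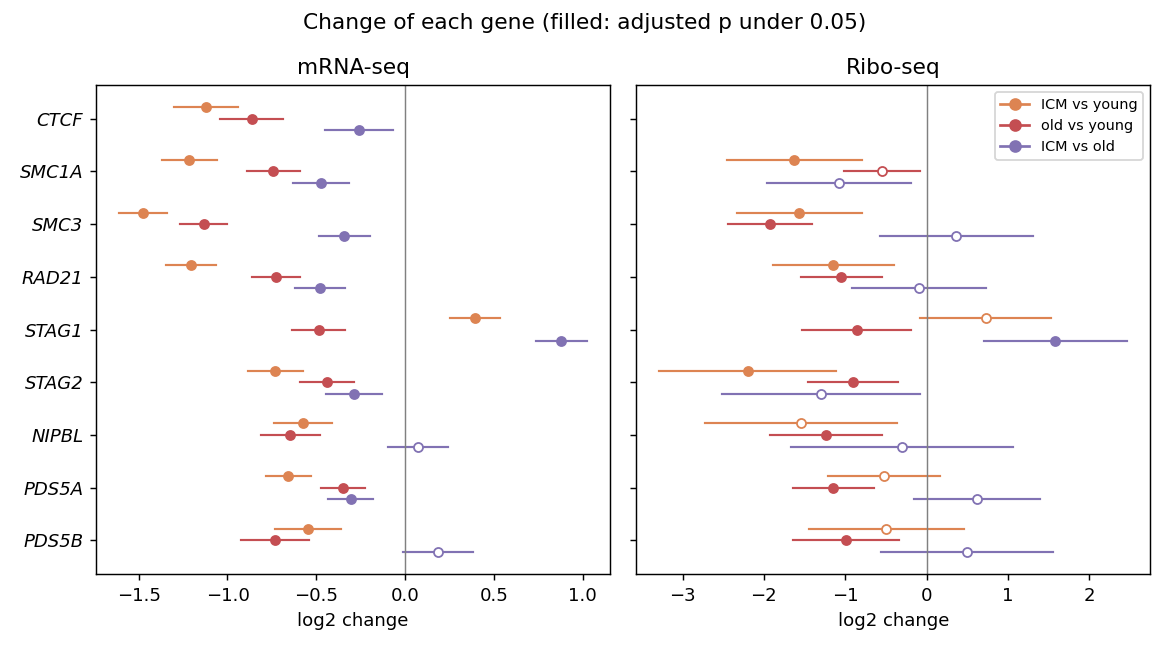
Log2 change of each gene (horizontal axis) in mRNA-seq (left) and Ribo-seq (right) with 95% intervals, for ICM against young, old against young and ICM against old cells. Filled points have an adjusted p under 0.05. STAG1 in ICM cells (0.39 against young, 0.88 against old) is the only mRNA change above 0 that was called.

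Translational efficiency, the footprint level relative to the mRNA level, was tested for 8 genes as the interaction of assay and condition. None was called in ICM against young, old against young or ICM against old cells, where 2.38%, 1.43% and 0.346% of 4618 tested genes were called in either direction. At an unadjusted p under 0.05 there were 1, 2 and 1 of the 8 genes, where 728, 567 and 513 of all 4618 tested genes passed. They were STAG2 in ICM against young cells (log2 change -1.36 ± 0.61), SMC3 and PDS5A in old against young cells (-0.79 ± 0.30 and -0.80 ± 0.28) and PDS5A between ICM and old cells (0.96 ± 0.41). SMC3 and PDS5A were called in old against young cells without the lysate block (adjusted p = 0.0139 and 0.0082). When 200 genes were changed by a factor of 2 in simulated ICM against young counts, 29.5% were recovered by this test, 93.5% in mRNA-seq and 41% in Ribo-seq (4492, 12842 and 4603 genes tested). A change of that size would thus often not have been detected in translational efficiency of ICM against young cells. No other genes were changed in the simulation, while 36.1% of tested genes fell and 34.9% rose in the real mRNA-seq. The simulated mRNA-seq and Ribo-seq rates may therefore differ from those of the real counts.

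Other cohesin regulators were measured beside the 9 genes. Of 14 regulators, 12 fell and 2 rose in mRNA-seq in ICM against young cells, where 36.1% of all tested genes fell and 34.9% rose. In old against young cells 12 fell, 1 rose and 1 was not called, where 33.7% of all tested genes fell and 32.4% rose. The median log2 changes were -3.01 and -1.04. CDCA5 (sororin, which protects the ring from WAPL) was at 38.95 CPM in young, 19.6 in old and 2.22 in ICM libraries on average, with log2 changes of -4.12 ± 0.13 and -0.99 ± 0.09. ESCO2, an acetyltransferase of SMC3 in S phase, changed by -5.00 ± 0.29 and -1.70 ± 0.18, while its relative ESCO1 changed by -0.28 ± 0.11 and -0.42 ± 0.11. WAPL, the release factor, changed by -0.39 ± 0.06 and -0.22 ± 0.06.

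MAU2, the partner of NIPBL, went the other way from NIPBL. It measured 46.9, 45.6 and 46.1 CPM in young, 53.8, 47.3 and 56.3 CPM in old and 72.2, 71.2 and 76.2 CPM in ICM libraries, and no group overlapped another. The log2 change was 0.66 ± 0.07 in ICM (adjusted p = 2.935e-08) and 0.18 ± 0.07 in old cells (adjusted p = 0.040) against young cells. Its footprints were also higher in ICM than in young cells (1.68 ± 0.44, adjusted p = 0.0039, from 22, 6 and 9 footprints). HDAC8, the deacetylase of SMC3, rose by 0.21 ± 0.09 in ICM cells (adjusted p = 0.0498).

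Of the germline paralogues, REC8 and STAG3 passed the filter. REC8, a meiotic counterpart of RAD21, fell by 0.74 ± 0.22 in ICM (adjusted p = 0.0046) and by 0.51 ± 0.22 in old cells (adjusted p = 0.040) on the log2 scale, and STAG3 was not called (log2 changes 0.10 ± 0.21 in ICM and -0.12 ± 0.23 in old cells). Of 14 condensin and SMC5/6 subunits, 12 fell and 2 rose in ICM, and 11 fell and 3 were not called in old cells, with NCAPH at -6.47 ± 0.20 and -2.23 ± 0.12. Of 10 other loop factors and CTCF-site proteins, 7 fell in each comparison, 2 rose and 1 was not called in ICM cells, and 3 rose in old cells. Of all tested genes, 36.1% fell and 34.9% rose in ICM cells, and 33.7% fell and 32.4% rose in old cells. YY1 and ZNF143 rose in both comparisons and LDB1 in old cells, by log2 changes from 0.21 to 0.35, and these 3 were named after their values were seen. PATZ1 changed the most of these, by -1.91 ± 0.13 and -1.37 ± 0.12, and TOP2B changed by -1.40 ± 0.07 and -1.08 ± 0.07. All 7 proliferation markers fell in both comparisons, with medians of -3.70 and -1.77 and MKI67 at -7.54 ± 0.13 and -2.31 ± 0.07. Whether what lowered these markers had a part in the values of the 9 genes was not tested.

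The genes whose mRNA pattern over the 9 mRNA-seq libraries was most like that of a member were sought among 9470 genes by Pearson's r of log2(CPM + 1). They were NASP, HNRNPA1L2 and HNRNPA1 for SMC3 (r from 0.9992 to 0.9994), PXK, DPF3 and CCNB1 for RAD21 (0.9958 to 0.9965) and KLF9, TFRC and GLCE for STAG1 (0.9914 to 0.9972). For CTCF they were LSM8, DDAH2 and THG1L (0.9903 to 0.9912). With 3 conditions and 9 libraries such values are a description only, since the libraries share depth and condition.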

How the data were processed

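The authors deposited 1 table per library, with estimated counts for each gene symbol split by 5′ UTR, CDS, 3′ UTR and other transcript classes and not scaled to depth. The submitters' processing notes name STAR 2.6.0c, featureCounts, DESeq2, deepTools and GRCh37, without roles. The annotation release and the placing of multi-mapping reads are not given in the sources used here. Groups came from the sample titles. Counts were rounded and fitted per assay over its 9 libraries in edgeR 4.0.16 (R 4.3.3) with quasi-likelihood tests, TMM scaling and filterByExpr, and p-values were Benjamini-Hochberg adjusted over all tested genes. SE were derived from each F statistic. Translational efficiency was the assay by condition interaction over the 18 libraries, blocked by lysate, because the methods state that the RNA was taken from the same lysates. The study's anota2seq was not used here. Replicates were described as independent cultures. Samples with equal replicate numbers were not treated as pairs across conditions in the main fits. Their deviations from the group means correlated from -0.0928 to 0.1285 in mRNA-seq and from 0.0021 to 0.0387 in Ribo-seq. Libraries of the same lysate, which are paired, correlated as weakly across assays, from -0.0711 to 0.1193. These correlations therefore cannot show whether replicate numbers pair samples. Ratios used a pseudocount of 0.5 and an exact permutation test. Gene positions and coding lengths came from GENCODE on GRCh37 and promoters from RefSeq. Scripts were tested on simulated counts. The members and lists were chosen with earlier results of these data known. Named genes were the 9 members, any cohesin regulator, the 3 genes of each other list with the largest mRNA change, and the 3 most similar genes per member. Alternatives were RLE scaling, DESeq2 1.42.0, other filters, thresholds, regions and blocks, fits of only the compared groups, and leaving out libraries.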

Additional observations from a re-analysis of the deposited data

Results flagged for a closer look

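STAG1 mRNA was called in opposite directions in the 2 arrested states against the same young libraries, higher in ICM cells and lower in old cells. The direct test of ICM against old cells gave a log2 change of 0.88 ± 0.07 (edgeR, adjusted p = 5.001e-10), with all 3 ICM libraries above all 3 old ones. Against young cells the log2 changes were 0.39 and -0.49, and neither call was kept when a log2 change over 0.6 was also required. Under the 17 other settings tried the change between ICM and old cells was between 0.85 and 0.92, with adjusted p from 4.736e-23 to 3.092e-08.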

How the results depend on the processing

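In mRNA-seq all 9 genes were called against young cells in both comparisons under every alternative, except that a log2 change over 0.6 left 6 in each, STAG1 in neither, and between ICM and old cells 6 to 7 were called when 1 library was left out and 1 (STAG1) at that threshold. In Ribo-seq the number called in ICM against young cells was 4, and 2 to 5 when 1 library was left out. It became 2 in DESeq2, with a replicate block, with a mean of at least 50 counts (2 genes tested) and with only the compared groups (6 genes tested). In old against young cells it was 7, and 1 to 8 without single libraries. It became 1 in DESeq2, 1 with the replicate block and 2 with a mean of at least 50 counts (2 genes tested). Between ICM and old cells it was 1, and 0 to 1 without single libraries. It became 2 at an adjusted p under 0.15 and 0 in DESeq2. It was also 0 with a mean of at least 50 counts (2 genes tested) and with only the compared groups (1 gene tested), where STAG1 was not tested. For translational efficiency it was 0 and became 2 in old against young cells with only the compared groups and without the lysate block. In Ribo-seq with replicate number as a block, RAD21 and STAG2 were no longer called in ICM against young cells (adjusted p = 0.187 and 0.0562). In old against young cells the same block left RAD21, NIPBL, STAG2, STAG1, PDS5A and PDS5B not called (adjusted p = 0.125, 0.398, 0.492, 0.233, 0.0695 and 0.119). Whether replicate numbers mark a shared source across conditions could not be read from the correlations. The causes were not tested, other than that the stricter filter and some of the other fits left fewer genes to test.

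The log2 changes that reversed were small or rested on few footprints, and no reversed value was a called one. Footprints of RAD21 between ICM and old cells gave 0.10 in DESeq2 and 0.024 with a mean of at least 50 counts, and -0.94 to 0.31 without single libraries. Without single libraries, NIPBL gave -1.20 to 0.34 and SMC3 -0.77 to 0.56 in that comparison, and NIPBL mRNA -0.004 to 0.14. Translational efficiency of RAD21 in ICM against young cells gave -0.025 with RLE scaling, -0.16 with no filter, -0.055 with mRNA-seq CDS reads, -0.15 without young replicate 1 and old replicate 2, and -0.87 to 0.53 without single libraries. In the same measure and comparison, no filter gave -0.033 for PDS5A and -0.076 for PDS5B, and single libraries left out gave -0.25 to 0.68 for STAG1, -1.24 to 0.032 for SMC3, -0.31 to 0.21 for PDS5A and -0.021 to 0.13 for PDS5B. In old against young cells, PDS5B gave 0.0036 without young replicate 1 and old replicate 2, and single libraries left out gave -0.73 to 0.090 for STAG1 and -0.12 to 0.25 for SMC1A. Between ICM and old cells they gave -0.61 to 0.80 for RAD21, -1.30 to 0.40 for NIPBL and -0.45 to 0.87 for SMC3. The log2 ratio of PDS5A to PDS5B in ICM against young cells was -0.11 in mRNA-seq and -0.047 over the CDS alone, and in Ribo-seq -0.38 to 0.13 without single libraries. The STAG2 to STAG1 ratios kept their direction under all alternatives. Depth limits the footprint results, with 166 CDS footprints on the 9 genes in all ICM libraries together.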
